A study of Homo sapiens with 24 samples.

Results

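The TPD52 family is a small group of genes for coiled-coil proteins, and 3 of its genes, *TPD52*, *TPD52L1* and *TPD52L2*, are described here out of 60605 genes in the count table. The 3 genes were matched to the table by symbol. They were selected with the dTAG-13 response of these libraries in view, because *TPD52L1* rose in 12 of 12 pairs of libraries, so every value of that response is given below as a description with no test. All 3 passed the filter on low counts, which kept 22326 genes for testing.

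The proteins of the family bind to themselves and to each other through the coiled coil, and they act in the traffic of vesicles between membrane compartments. TPD52 lies on the long arm of chromosome 8, is often gained and highly expressed in breast cancer, and has been linked to the storage of lipid in droplets. TPD52L1, also called D53, binds 14-3-3 proteins and the kinase MAP3K5, TPD52L2, also called D54, marks small transport vesicles in the cell, and a further relative, TPD52L3, belongs to the testis.

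The libraries were made by PRO-seq, which sequences the growing ends of nascent RNA and so counts engaged RNA polymerase over a gene. The cells were T47D, a luminal breast cancer line in which the transcriptional repressor TRPS1 carries a dTAG degron, and dTAG-13 is the small molecule that brings the tagged protein to a ubiquitin ligase for degradation. Clones 28, 35 and 39, each a single clonal line, received 0.1% DMSO or 100 nM dTAG-13 in DMSO for 90 minutes, which gave 6 groups of 4 libraries and 24 libraries in all. The 4 replicates were treated and collected at different times of a day, with both treatments collected together, and comparing the treatments asks which genes change soon after loss of TRPS1.

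All 6 groups carry the degron on TRPS1, so the DMSO groups are tagged controls and no library comes from unmodified T47D cells. According to the methods, each clone also has part of its *TRPS1* copies knocked out and makes only the tagged protein. The clones went through selection with puromycin and then hygromycin as they were made. A difference between clones is therefore a difference between single lines, and what the clones were like before tagging was not measured.

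The total count ranged from 4185233 to 5108645 in Clone 28 DMSO and from 4254387 to 6363411 in Clone 28 dTAG-13. It ranged from 4287721 to 7106656 in Clone 35 DMSO and from 4975599 to 9575803 in Clone 35 dTAG-13. In Clone 39 it ranged from 3626852 to 5192713 in DMSO and from 3226718 to 5293723 in dTAG-13, so this clone had the smallest library of the series. Levels below are CPM (counts relative to the size of the library, with TMM factors). Where the level of a member or of *TRPS1* is ranked against other genes, it is CPM per kb of the gene's span. Markers and the genes of the lists are ordered by CPM alone, which makes no allowance for gene length.

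The luminal label was checked against 10 marker genes, which all passed the filter and summed to between 4083 and 6438 CPM per library, led by *ESR1*. *ESR1* had a median of 1598 CPM, *GATA3* 802 CPM and *KRT19* 318 CPM. *TFF1* was the lowest of the luminal markers, with a median of 2.51 CPM. Of 6 basal markers, *KRT5* was at 0 in 16 of 24 libraries, *KRT14* in 11 and *KRT17* in 9, and the 6 together summed to between 28.5 and 61.9 CPM, led by *MYLK*. Of the 5 mesenchymal markers, 2 passed the filter, and all 5 together summed to at most 30.4 CPM, led by *COL1A1*, with *COL1A2* at 0 in 9 libraries. The 3 blood markers summed to at most 23.2 CPM, led by *CD68*.

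*TRPS1* (ENSG00000104447), the gene of the degraded protein, ranged from 5183 to 9296 CPM over the 24 libraries, and its transcription rose with dTAG-13 in each of the 12 pairs. The degron acts on the protein, so this level does not show whether degradation took place or whether the treatment labels are right. Per kb it stood at percentile 98.8 of the 14905 protein-coding genes tested.

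*TPD52* (ENSG00000076554), the founding member of the family, lies on the minus strand at chr8:80034745-80231232 in GENCODE release 44 on hg38 and spans 196.5 kb. It has 29 annotated transcripts from 26 start positions. Its last 46.03 kb, 23.4% of the span, are shared on the same strand with the readthrough gene TPD52-MRPS28 (ENSG00000276418), so nascent RNA counted there cannot be assigned to 1 of the 2 genes.

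*TPD52L1* (ENSG00000111907), which encodes the protein D53, lies on the plus strand at chr6:125119049-125264407 and spans 145.4 kb, with 17 transcripts from 16 start positions. *HDDC2* (ENSG00000111906) runs over 44.45 kb of it, 30.6% of the span, on the opposite strand. *TPD52L2* (ENSG00000101150), which encodes D54, lies on the plus strand at chr20:63865228-63891545 and spans only 26.3 kb. Nearly all of it, 99.6%, is also covered on the same strand by a lncRNA (ENSG00000290226), an identifier that is absent from the count table.

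The sources used here do not state how strand was handled in counting, and the counts themselves were used to settle it. Where 1 gene lies wholly inside another on the same strand, the median ratio of their read densities was 0.85 over 92 such pairs. Where the inner gene lies on the opposite strand, the median ratio was 0.0218 over 257 pairs, so the reads were counted by strand. The count of *TPD52L1* thus holds few reads from *HDDC2*, whereas the shared end of *TPD52* stays mixed with its readthrough gene.

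For the 2 members on other chromosomes than 8, the RefSeq table of promoters (GRCh38.p14) had an entry, and the bases from the start of each entry to the next annotated exon are shown so that the start regions of the gene that rose and of 1 with no common direction can be set side by side. Capitals mark matches to 7 motifs, searched on both strands and chosen with the sequences in view. They were AGATAA with its variant TGATAA (the GATA type), AGGTCA (the nuclear receptor type), CCAAT (the NF-Y type), CACGTG (the E-box type), GGGCGG (the GC box) plus CGGAAG (the ETS type). The *TPD52L1* window covers chr6:125153996-125154188 on the plus strand, 193 bases inside the first intron of the main annotated transcript, which starts further upstream at base 125153773. The *TPD52L2* window covers chr20:63865020-63865227 on the plus strand and has 208 bases.
TPD52L1: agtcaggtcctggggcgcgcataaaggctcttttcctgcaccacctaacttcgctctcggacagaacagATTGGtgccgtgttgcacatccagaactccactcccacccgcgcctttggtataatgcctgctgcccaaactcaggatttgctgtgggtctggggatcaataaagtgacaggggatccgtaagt
TPD52L2: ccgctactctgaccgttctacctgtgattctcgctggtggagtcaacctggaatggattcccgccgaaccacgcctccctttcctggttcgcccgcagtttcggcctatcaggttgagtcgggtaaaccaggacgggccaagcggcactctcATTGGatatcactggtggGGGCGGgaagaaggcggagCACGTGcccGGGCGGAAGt

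The *TPD52L1* window is 54.4% G and C with 8 CpG, and the *TPD52L2* window is 61.1% G and C with 17 CpG. The letters shared by both windows are CCAAT, read on the minus strand and therefore printed as ATTGG. These letters were present in 26.3% of 35116 promoters taken at the length of the *TPD52L1* window and in 28.6% at the length of the *TPD52L2* window. *TPD52L2* also had CACGTG, present in 4.88% of promoters, GGGCGG at bases 171 and 199, present in 36.7%, and CGGAAG at base 202, present in 12.2% and overlapping the second GGGCGG. None of these 3 was among the letters of the *TPD52L1* window, where CACGTG is found in 4.22% of promoters, GGGCGG in 33.6% and CGGAAG in 10.9%. Neither window had AGATAA, found in 7.44% of promoters at the shorter length and in 7.81% at the longer one. Neither had TGATAA, found in 5.48% and 5.81%, or the nuclear receptor type AGGTCA, found in 9.31% and 10.2%. A match is a run of letters and was not tested as a binding site, and a missing match says only that these letters are not in the window.

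Per kb, *TPD52L2* had the highest level of the 3 genes, with a mean of 2.64 CPM per kb and a range from 2.34 to 2.92 over the 24 libraries, at percentile 80.5 of protein-coding genes. *TPD52L1* had a mean of 0.885 CPM per kb, from 0.619 to 1.29, at percentile 44.6. *TPD52* had the lowest, with a mean of 0.448 CPM per kb, from 0.333 to 0.584, at percentile 28.3. At these GENCODE spans the 3 ranges do not overlap, so every library of *TPD52L2* was above every one of *TPD52L1*, and these above every one of *TPD52*. Without the division by length *TPD52L2* would come last, with a mean of 69.4 CPM against 129 for *TPD52L1* and 87.9 for *TPD52*. *TPD52L3*, the testis relative, had 7 counts in 7 of the 24 libraries and did not pass the filter, and the floor of 3 counts lay between 0.314 and 0.937 CPM in single libraries.

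*TPD52* had 77.3, 83.2, 78.7 and 75.8 CPM in replicates 1 to 4 of Clone 28 DMSO and 65.5, 66.7, 70.1 and 77.0 CPM with dTAG-13. Clone 35 had 89.2, 84.6, 86.6 and 87.9 CPM in DMSO and 76.7, 72.6, 76.6 and 83.9 CPM in dTAG-13. Clone 39 had 115, 107, 112 and 112 CPM in DMSO and 107, 103, 101 and 103 CPM in dTAG-13. Clone 39 was highest in both treatments, with no DMSO library of Clone 28 or 35 reaching its lowest value. Within a clone the treatments overlapped only slightly: in Clone 28 through replicate 4 of dTAG-13, in Clone 39 at 107 CPM, and not at all in Clone 35.

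*TPD52L1* had 136, 111, 98.1 and 102 CPM in the DMSO replicates of Clone 28 and 149, 123, 132 and 126 CPM with dTAG-13. Clone 35 had 114, 98.6, 92.1 and 90.0 CPM in DMSO and 132, 108, 114 and 111 CPM in dTAG-13. Clone 39 had 172, 155, 130 and 131 CPM in DMSO and 187, 158, 157 and 161 CPM in dTAG-13. Replicate 1 was the highest of its 4 libraries in all 6 groups. Because of that spread the DMSO and dTAG-13 ranges overlapped in each clone, although each dTAG-13 library was above its DMSO partner.

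*TPD52L2* had 72.1, 67.9, 71.0 and 69.1 CPM in Clone 28 DMSO and 70.5, 63.1, 67.3 and 71.0 CPM in dTAG-13. Clone 35 had 69.1, 68.5, 71.0 and 76.2 CPM in DMSO and 70.0, 72.4, 71.6 and 72.8 CPM in dTAG-13. Clone 39 had 61.7, 70.5, 76.8 and 64.7 CPM in DMSO and 64.8, 67.7, 62.5 and 73.9 CPM in dTAG-13. All 6 groups overlapped, and the widest spread was within Clone 39. The values of *TPD52L2* rest on 200 to 684 counts per library, those of *TPD52* on 274 to 732 and those of *TPD52L1* on 456 to 1085.

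**Figure D1:**
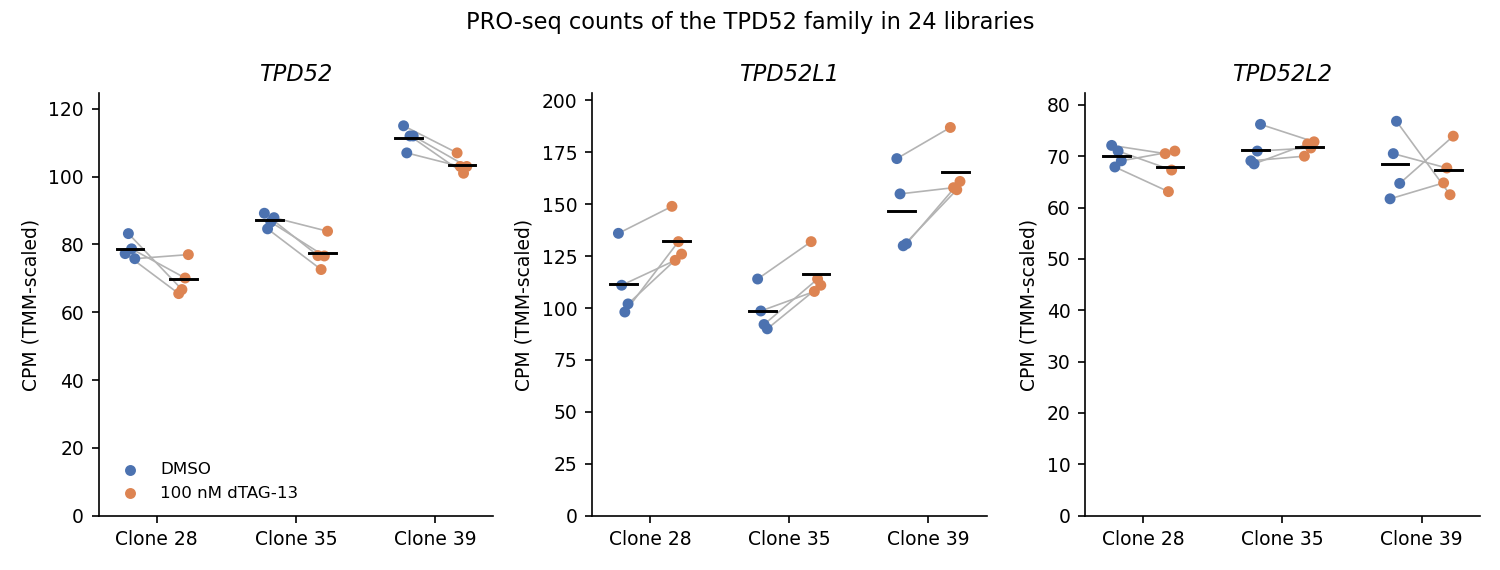
CPM (vertical axis, TMM-scaled) of the 3 genes in each library of Clones 28, 35 and 39, with DMSO in blue and 100 nM dTAG-13 in orange, grey lines joining libraries of the same replicate number and black bars for the mean of 4. *TPD52* and *TPD52L1* are highest in Clone 39, with means of 111 and 147 CPM in DMSO, whereas *TPD52L2* lies between 61.7 and 76.8 CPM throughout.

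The next values describe the response that the genes were selected on. *TPD52L1* rose by 0.13, 0.16, 0.43 and 0.31 (log2 of CPM, dTAG-13 minus DMSO of the same replicate number) in the 4 pairs of Clone 28. The differences were 0.21, 0.12, 0.30 and 0.31 in Clone 35 and 0.12, 0.03, 0.28 and 0.30 in Clone 39. The mean of the 12 was 0.22 with an SD of 0.11, and the smallest, 0.03 in replicate 2 of Clone 39, was the pair that came nearest to breaking the pattern of 12 of 12. Of the genes tested, 0.363% were higher in 12 of 12 pairs. The fitted log2 fold change was 0.22 with a standard error of 0.06, from a model of clone and treatment that leaves out the pairs. With the 12 pairs in the model it was 0.23 with a standard error of 0.03.

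*TPD52* moved the other way. Its log2 differences were -0.24, -0.32, -0.17 and 0.02 in Clone 28, -0.22, -0.22, -0.18 and -0.07 in Clone 35 and -0.10, -0.05, -0.14 and -0.12 in Clone 39. It was thus lower in 11 of 12 pairs, and 0.981% of the genes tested were lower in 11 or 12 pairs. The mean of the 12 was -0.15 with an SD of 0.09. The fitted log2 fold change was -0.15 with a standard error of 0.03, both without and with the pairs in the model.

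*TPD52L2* had no common direction. Its log2 differences were -0.03, -0.10, -0.08 and 0.04 in Clone 28, 0.02, 0.08, 0.01 and -0.07 in Clone 35 and 0.07, -0.06, -0.30 and 0.19 in Clone 39. It was higher in 6 pairs and lower in 6, and both its lowest and its highest difference came from Clone 39. The fitted log2 fold change was -0.02 with a standard error of 0.04, and -0.01 with 0.03 when the pairs were in the model. Its sign turned with the choice of clones, from -0.04 in Clone 28 alone to 0.01 in Clone 35 alone.

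The level of *TPD52L1* relative to *TPD52*, as a ratio of CPM per kb, joined the 2 movements. In DMSO the ratio was 1.92 ± 0.311 (SD, n = 4) in Clone 28, 1.53 ± 0.156 in Clone 35 and 1.78 ± 0.243 in Clone 39. With dTAG-13 it was 2.59 ± 0.361, 2.03 ± 0.218 and 2.17 ± 0.131 in the same order. In Clones 35 and 39 the 4 dTAG-13 libraries were all above the 4 DMSO libraries. In Clone 28 the ranges met, with 2.38 the highest in DMSO and 2.21 the lowest in dTAG-13. The ratio is built from the response that the genes were selected on, so this separation is a description and adds no result. How many other pairs of genes separate in this way was not computed.

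The fall of *TPD52* is given for 2 stretches, the end that the readthrough transcript shares and the stretch that it does not. A read was assumed to be counted in each gene it overlaps. The shared end was then taken as the count of TPD52-MRPS28 less that of *MRPS28*, and the unshared stretch as the remainder of *TPD52*. The shared end so computed also holds any reads from the 4.5 kb between *TPD52* and *MRPS28*. It may thus be too high, and the unshared stretch too low by the same count. As computed, 55.3% of the *TPD52* count fell to the unshared stretch and 44.7% to the shared end. The unshared stretch had a mean of 42.2 ± 1.10 CPM (SD, n = 4) in Clone 28 DMSO, 48.9 ± 3.85 in Clone 35 DMSO and 60.9 ± 5.71 in Clone 39 DMSO. With dTAG-13 it had 40.4 ± 6.89, 42.4 ± 4.36 and 56.4 ± 1.97 CPM. The shared end had 36.5 ± 3.99, 38.2 ± 3.39 and 50.3 ± 5.81 CPM in DMSO and 29.4 ± 2.30, 35 ± 1.34 and 46.9 ± 3.10 CPM with dTAG-13. Each stretch was lower with dTAG-13 in 11 of 12 pairs, and both had their highest means in Clone 39. The readthrough gene TPD52-MRPS28 was lower in 11 of 12 pairs, with a mean log2 difference of -0.05. Its count holds the reads of the shared end, so this is not a separate observation. *MRPS28*, the gene downstream that the readthrough transcript runs into, was higher in 5 pairs and lower in 7, with a mean log2 difference of -0.01.

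*HDDC2*, on the other strand of *TPD52L1*, rose in 5 of 12 pairs, with a mean log2 difference of 0.02 and an SD of 0.20. The direction found for *TPD52L1* in 12 pairs was therefore not shared by the gene opposite to it.

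**Figure D2:**
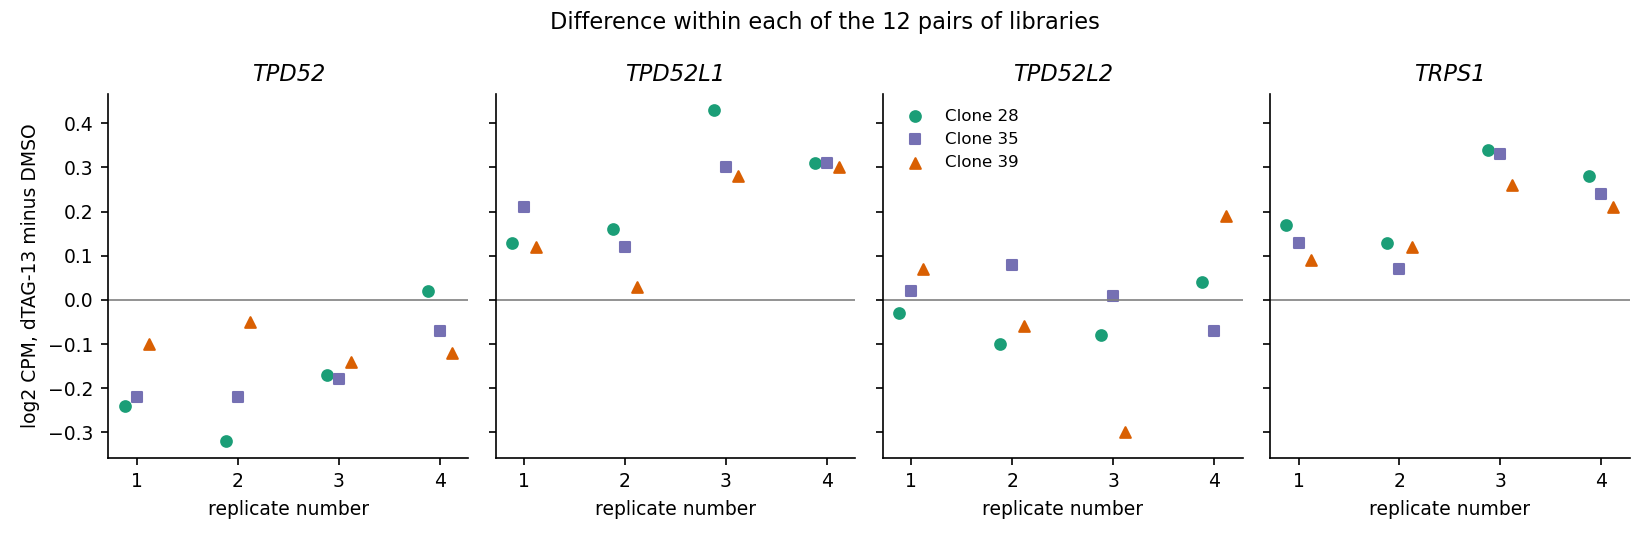
Log2 CPM of dTAG-13 minus DMSO (vertical axis) in each of the 12 pairs against the replicate number (horizontal axis), with circles for Clone 28, squares for Clone 35 and triangles for Clone 39. *TPD52L1* and *TRPS1* are above 0 in all 12 pairs, *TPD52* is below 0 in 11, and the *TPD52L2* pairs lie on both sides of 0.

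The size of the response in each clone is given as a description, since it comes from the pairs that the genes were selected on. The mean log2 difference of *TPD52L1* was 0.26 in Clone 28, 0.24 in Clone 35 and 0.18 in Clone 39, each clone with its 4 pairs higher. For *TPD52* it was -0.17, -0.17 and -0.11. A difference of the response between clones was tested as an interaction across the series, and no test is given for the 3 genes. Of 22326 genes 0 were called (quasi-likelihood F test of edgeR, Benjamini-Hochberg), a share of 0%, with 407 genes at an unadjusted p under 0.05. With the 12 pairs as a replicate block 1 gene was called and 1017 had an unadjusted p under 0.05.

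The comparison of the clones in DMSO asks how far 3 lines made from the same parent differ before treatment, and it does not involve the response that selected the genes. Calls are edgeR quasi-likelihood tests with a Benjamini-Hochberg adjusted p under 0.1 over all 22326 genes. For Clone 39 against Clone 28, 2 of the 3 genes were called, both higher, where 26.7% of all genes were called and 12.4% were called higher. *TPD52* differed by 0.50 on the log2 scale (standard error 0.06, adjusted p 4.36e-08), with 4 of 4 Clone 39 libraries above all of Clone 28. *TPD52L1* differed by 0.40 (standard error 0.10, adjusted p 0.00626), with 2 of 4 Clone 39 libraries above all of Clone 28 and the other 2 within its range.

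For Clone 39 against Clone 35 the same 2 genes were called, again higher, where 22.6% of all genes were called and 9.64% were called higher. *TPD52* differed by 0.35 (standard error 0.06, adjusted p 1.5e-05) and *TPD52L1* by 0.58 (standard error 0.10, adjusted p 0.000145), and for both genes 4 of 4 Clone 39 libraries were above all of Clone 35. Clone 39 differed from the other clones in a large share of all genes, so calls in 2 of 3 genes set nothing apart about the family. *TPD52L2* was called in neither comparison, with log2 differences of -0.04 and -0.07, neither larger in size than the standard error of 0.07.

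Between Clones 35 and 28 none of the 3 genes was called, where 5.25% of all genes were. *TPD52* was 0.14 higher in Clone 35 (standard error 0.06, adjusted p 0.223), although its 4 libraries were above all 4 of Clone 28. *TPD52L1* was lower in Clone 35 by -0.18 (standard error 0.10, adjusted p 0.485), with 2 of 4 libraries below all of Clone 28. Without replicate 1 of Clone 28 DMSO this difference was -0.07 (adjusted p 0.845). Both calls changed when the replicate number was a block shared by the clones, to an adjusted p of 0.0934 for *TPD52* and 0.0245 for *TPD52L1*, and the number of genes called went from 1173 to 2664. The labels do not say whether the same number in different clones marks the same collection time, so this block may join cultures collected apart. In the edgeR test without this block, the unadjusted p was 0.0194 for *TPD52*, 0.0991 for *TPD52L1* and 0.684 for *TPD52L2*.

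Among the libraries with dTAG-13, Clone 39 stood above both other clones in *TPD52* and *TPD52L1* with no overlap. In DMSO *TPD52L1* overlapped between Clones 39 and 28. How many of all genes separate in this way was not computed, so the separation sets nothing apart about these genes. In DMSO, Clone 39 was called against Clone 28 in 26.7% of all genes and against Clone 35 in 22.6%. With dTAG-13, Clones 28 and 35 overlapped in both genes, and *TPD52L2* overlapped throughout. *TRPS1* itself was not called between any clones in DMSO, with log2 differences of 0.10 for Clone 35 against 28, 0.24 for Clone 39 against 28 and 0.14 for Clone 39 against 35. The readthrough gene TPD52-MRPS28 differed by 0.07 for Clone 39 against 28 and *MRPS28* by -0.08, neither called.

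**Figure D3:**
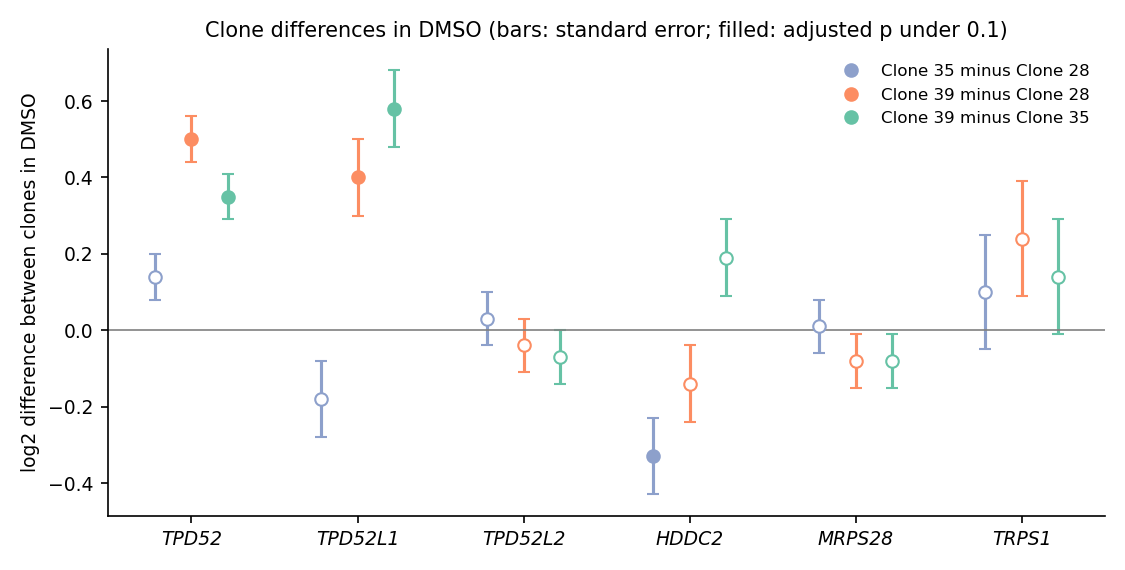
Log2 difference between clones in DMSO (vertical axis) for the 3 genes, their overlapping or adjoining genes and *TRPS1*, with bars for the standard error and filled points where the adjusted p is under 0.1. *TPD52* and *TPD52L1* are called in both comparisons with Clone 39, at 0.50 and 0.35 and at 0.40 and 0.58, and *TPD52L2* in none.

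The replicate number marks cultures collected at different times of the day, and its effect was tested within each treatment with clone in the model. The test pools equal numbers of different clones, which may not mark the same time, and on simulated counts it made more false calls than its threshold allows. In DMSO *TPD52L1* was called, with a range of 0.40 on the log2 scale between the 4 numbers (quasi-likelihood F test of edgeR, Benjamini-Hochberg adjusted p 3.5e-08), in a test that called 30.3% of 21254 genes. Its mean over the 3 clones was 0.25 above the mean of the numbers in replicate 1 and 0.03 above it in replicate 2, and -0.14 in both replicates 3 and 4. Replicate 1 was the highest DMSO library in 3 of 3 clones.

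In dTAG-13, a separate set of cultures, *TPD52L1* was called again with a range of 0.27 (adjusted p 0.000426, the same edgeR test), where 20.1% of 21529 genes were. There only replicate 1 stood out, at 0.18 above the mean of the numbers, with the other numbers between -0.09 and -0.03. *TPD52* had ranges of 0.04 in DMSO and 0.13 in dTAG-13 (adjusted p 0.96 and 0.346), and *TPD52L2* had 0.10 in both (adjusted p 0.705 and 0.554). The number of the replicate was thus called in 1 of the 3 genes in either treatment. Of the overlapping or adjoining genes, *HDDC2* was called in DMSO (adjusted p 0.0508), *MRPS28* in dTAG-13 (adjusted p 0.0162) and TPD52-MRPS28 in both (adjusted p 0.0553 and 0.0688).

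The same numbers also separate the sizes of the response. *TPD52L1* had a mean log2 difference between treatments of 0.15 in the pairs numbered 1, 0.10 in those numbered 2, 0.34 in those numbered 3 and 0.31 in those numbered 4. Each of the 6 pairs numbered 3 or 4 had a larger rise than each of the 6 numbered 1 or 2. *TRPS1* followed this order, with 0.13, 0.10, 0.31 and 0.25, and it too was lowest in DMSO in replicates 3 and 4, at -0.21 and -0.23 from the mean of the numbers. For *TPD52* the order differed, with -0.19, -0.20, -0.16 and -0.06. These differences share their DMSO libraries with the test of the replicate number in DMSO, and the part of collection time in them was not tested. The replicate number was called in 30.3% of all genes tested in DMSO and in 20.1% in dTAG-13. How many of all genes have such an order of pairs was not computed, so it sets nothing apart about *TPD52L1* or *TRPS1*.

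**Figure D4:**
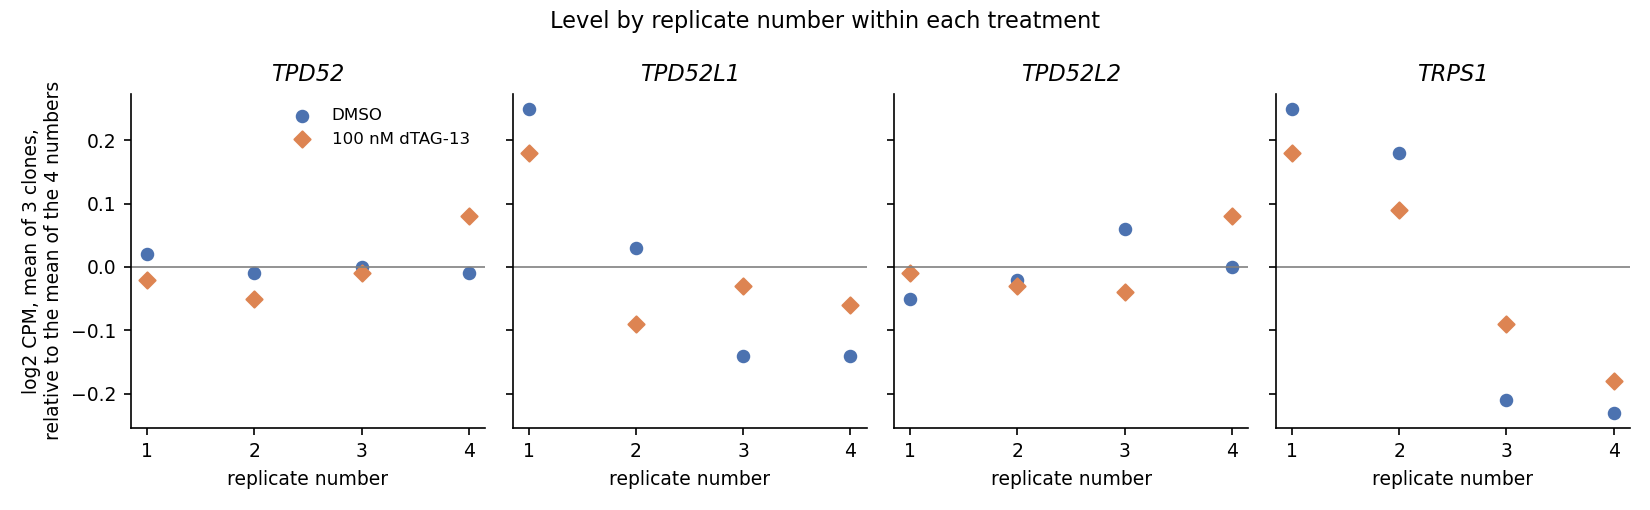
Mean log2 CPM of the 3 clones relative to the mean of the 4 replicate numbers (vertical axis) against the replicate number (horizontal axis), with blue circles for DMSO and orange diamonds for 100 nM dTAG-13. *TPD52L1* is highest in number 1, at 0.25 in DMSO and 0.18 in dTAG-13, and *TPD52L2* stays between -0.05 and 0.08.

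The genes on either side of the members were compared between the clones in the same way. RNF217, 26.4 kb to the left of *TPD52L1*, was higher in Clone 39 than in Clone 28 by 0.54 (standard error 0.08, adjusted p 3.22e-06) and than in Clone 35 by 0.77 (standard error 0.08, adjusted p 3.83e-09), with 4 of 4 libraries beyond in both. HEY2, 483.3 kb to the right, was lower in Clone 39 than in Clone 28 by -0.66 (standard error 0.09, adjusted p 2.59e-07) and than in Clone 35 by -0.36 (standard error 0.09, adjusted p 0.0018), with 4 of 4 libraries below in both. It was lower in Clone 35 than in Clone 28 by -0.30 (standard error 0.08, adjusted p 0.0294), a call lost without replicate 1 of Clone 28 DMSO (-0.26, adjusted p 0.119) and among the dTAG-13 libraries (-0.12, adjusted p 0.543). *HDDC2*, which overlaps *TPD52L1*, was not called in Clone 39, at -0.14 against Clone 28 and 0.19 against Clone 35 (adjusted p 0.374 and 0.2), and neither was NKAIN2, at 0.04 and -0.06 (adjusted p 0.93 and 0.886). *HDDC2* was lower in Clone 35 than in Clone 28 by -0.33 (standard error 0.10, adjusted p 0.0505, 4 of 4 libraries below), a call that was lost without replicate 1 of Clone 28 DMSO (-0.30, adjusted p 0.132) or without replicate 3 (-0.33, adjusted p 0.113) or 4 (-0.26, adjusted p 0.209) of Clone 35 DMSO. Among the dTAG-13 libraries it was not called either (-0.20, adjusted p 0.312). These are edgeR quasi-likelihood tests with Benjamini-Hochberg adjustment, as are those that follow.

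Next to *TPD52*, *MRPS28* at 4.5 kb and ZBTB10 at 254.4 kb were not called in any clone comparison. ZNF704 at 397.2 kb, named after its values were seen, was lower in Clone 39 than in Clone 28 by -0.72 (standard error 0.08, adjusted p 6.67e-09) and than in Clone 35 by -0.66 (standard error 0.08, adjusted p 3.99e-08). Next to *TPD52L2*, ZBTB46 at 33.2 kb and DNAJC5 at 3.6 kb were not called either, although DNAJC5 was lower with dTAG-13 in 11 of 12 pairs (log2 fold change -0.07, adjusted p 0.825). HELZ2, 291 kb from *TPD52L2*, was higher in Clone 39 than in Clone 28 by 0.72 (standard error 0.12, adjusted p 2.6e-05, 4 of 4 libraries above), and this call held without each library in turn. Against Clone 35 it was higher by 0.31 (standard error 0.12, adjusted p 0.0592, 1 of 4 libraries above), a call lost without replicate 1 (0.26, adjusted p 0.153) or 3 (0.26, adjusted p 0.186) of Clone 35 DMSO or replicate 4 of Clone 39 DMSO (0.16, adjusted p 0.388). That call was also lost with library totals (0.29, adjusted p 0.102) and at a threshold of 0.05. HELZ2 was higher in Clone 35 than in Clone 28 by 0.41 (standard error 0.12, adjusted p 0.0506, 4 of 4 libraries above). The call for Clone 35 was lost among the dTAG-13 libraries (0.15, adjusted p 0.64) and without replicate 1 (0.33, adjusted p 0.189), 2 (0.41, adjusted p 0.112) or 4 (0.40, adjusted p 0.11) of Clone 28 DMSO or without replicate 4 of Clone 35 DMSO (0.27, adjusted p 0.307).

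Of 45 protein-coding genes within 500 kb of a member, 38 were tested. For Clone 39 against Clone 28, 6 were called higher and 5 lower, with a median log2 difference of -0.02 against 0.00 for all genes tested. Of all genes, 12.4% were called higher and 14.3% lower in this comparison. For Clone 39 against Clone 35, 4 were higher and 3 lower, with a median of -0.04, where 9.64% of all genes were higher and 12.9% lower. For Clone 35 against Clone 28, 1 was higher and 2 lower, with a median of 0.02 against 0.01, where 2.24% of all genes were higher and 3.01% lower. DESeq2 gave 5 higher and 3 lower, 4 and 3, and 1 and 2 in the same order.

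In the dTAG-13 response 0 of the 38 neighbours were called by edgeR, where 0.551% of all genes were called, 0.358% higher and 0.193% lower, and 2 had an unadjusted p under 0.05. DESeq2 called 0 as well. With the replicate block, where 2.33% of all genes were called, 1.4% higher and 0.932% lower, PPDPF near *TPD52L2* was called, a gene named after its values were seen. Its log2 fold change was 0.22 with an adjusted p of 0.00587 with the block and 0.212 without it, and it was higher in 10 of 12 pairs. Without replicate 3 of Clone 35 DMSO it was also called in the fit with no block, at 0.27 and an adjusted p of 0.064. PPDPF was called with no filter on low counts as well. In a split chosen after seeing the data, PPDPF was called in the pairs numbered 1 and 2 (0.36, adjusted p 0.013) and not in those numbered 3 and 4 (0.12, adjusted p 0.482).

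Among 14 reported binding partners of the family's proteins, 13 were tested and *MAL* was not, being too low. The 14-3-3 genes were the most counted, with YWHAZ at a mean of 273 CPM, YWHAG at 149 CPM and YWHAE at 122 CPM. With dTAG-13, 0 of the 13 were called by edgeR or by DESeq2, where edgeR called 0.551% of all genes. In edgeR 1 of the 13 had an unadjusted p under 0.05, beside 1411 of all 22326 genes. The median log2 fold change was -0.03 against 0.00 for all genes. For Clone 39, 3 partners were higher and 2 lower against Clone 28 and also 3 and 2 against Clone 35, by edgeR and by DESeq2, where edgeR called 26.7% and 22.6% of all genes, with medians of 0.11 and 0.07 that compare with 0.00 for all genes. For Clone 35 against Clone 28, 0 were called by edgeR or DESeq2, with 0 at an unadjusted p under 0.05. YWHAZ, higher in Clone 39 than in Clone 35 by 0.14 (adjusted p 0.07 in edgeR), lost its call without replicate 3 or 4 of Clone 35 DMSO. The same held without replicate 1 or 2 of Clone 39 DMSO, with no filter, at a threshold of 0.05 and among the dTAG-13 libraries. Against Clone 28 (0.17, adjusted p 0.0175 in edgeR) its call was lost without replicate 1 of Clone 39 DMSO and with no filter.

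The partners that were lower in Clone 39 were large differences in 1 vesicle SNARE and 1 14-3-3 gene. VAMP2, a SNARE that joins vesicles to their target membrane, was lower than in Clone 28 by -1.02 (standard error 0.15, adjusted p 2.58e-06), with 4 of 4 libraries below. YWHAE was lower by -0.89 (standard error 0.05, adjusted p 6.89e-15), from 137 to 147 CPM in Clone 28 DMSO to between 74.7 and 80.0 CPM in 4 of 4 libraries of Clone 39. MAP3K5, the kinase that binds D53, was not called, with a log2 difference of -0.22 (adjusted p 0.132).

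The 16 Rab GTPases listed, which label secretory, endosomal and recycling vesicles, were all tested, led by RAB2A at 173 CPM, RAB6A at 132 CPM and RAB10 at 126 CPM. With dTAG-13, 0 were called by edgeR or DESeq2, where edgeR called 0.551% of all genes. In edgeR 0 had an unadjusted p under 0.05, beside 1411 of all 22326 genes, and the median log2 fold change was 0.01. For Clone 39, 5 were higher and 3 lower against Clone 28 and 2 and 2 against Clone 35, and for Clone 35 against Clone 28, 1 was lower, where 26.7%, 22.6% and 5.25% of all genes were called. DESeq2 gave 4 higher and 2 lower for Clone 39 against Clone 28 and the same counts in the other 2 comparisons. The medians were 0.04, 0.00 and 0.06. Of those higher in Clone 39 than in Clone 28, RAB2A (0.18, adjusted p 0.0569 in edgeR) lost its call without replicate 3 or 4 of Clone 28 DMSO. The same held without replicate 1 or 2 of Clone 39 DMSO, with no filter, at a threshold of 0.05 and among the dTAG-13 libraries. RAB6A (0.15, adjusted p 0.0319 in edgeR) lost its call without replicate 1 of Clone 39 DMSO, with no filter and among the dTAG-13 libraries.

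Of 23 lipid droplet genes 21 were tested, with CIDEB and CIDEC too low, and BSCL2 at 102 CPM, ACSL3 at 92.2 CPM and PNPLA3 at 88.5 CPM were the most counted. With dTAG-13, 0 were called by edgeR or DESeq2, where edgeR called 0.551% of all genes. In edgeR 0 had an unadjusted p under 0.05, beside 1411 of all 22326 genes, and the median log2 fold change was 0.00. For Clone 39, 4 were higher and 4 lower against Clone 28 and 6 and 4 against Clone 35, and for Clone 35 against Clone 28, 1 was higher and 1 lower, beside the same 26.7%, 22.6% and 5.25% of all genes. DESeq2 gave 4 higher and 3 lower, 6 and 4, and 0 and 1. The medians were 0.05, -0.01 and 0.06.

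PLIN4, a coat protein of lipid droplets, was higher in Clone 39 than in Clone 28 by 1.30 (standard error 0.39, adjusted p 0.014) and than in Clone 35 by 1.57 (standard error 0.38, adjusted p 0.00268), with 4 of 4 libraries above in both, at a low mean of 1.55 CPM. PNPLA3, a lipase of the droplet surface, was higher than in Clone 28 by 0.50 (standard error 0.08, adjusted p 2.13e-05), again in 4 of 4 libraries. SOAT1, which makes the cholesterol esters that droplets store, was lower in Clone 35 than in Clone 28 by -0.44 (standard error 0.12, adjusted p 0.0264, 4 of 4 libraries below), a call lost without replicate 1 of Clone 35 DMSO (-0.34, adjusted p 0.105) and among the dTAG-13 libraries (-0.33, adjusted p 0.117).

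MGLL and ABHD5, named after their values were seen, were lower in Clone 39 than in Clone 28 by -0.63 and -0.52 (adjusted p 5.33e-06 and 1.79e-07) and than in Clone 35 by -0.91 and -0.45 (adjusted p 3.17e-09 and 2.4e-06). HSD17B11 and CIDEA also differed, on few counts. HSD17B11 was lower in Clone 39 than in Clone 35 by -1.19 (standard error 0.42, adjusted p 0.0425, 4 of 4 libraries below), but not called without replicate 2 of Clone 35 DMSO (-1.09, adjusted p 0.103) or replicate 1 of Clone 39 DMSO (-0.92, adjusted p 0.177). Against Clone 28 it was lower by -1.07 (adjusted p 0.0797, 3 of 4 libraries below), and that call was lost without replicate 1 (-1.04, adjusted p 0.128), 3 (-1.10, adjusted p 0.109) or 4 (-0.92, adjusted p 0.208) of Clone 28 DMSO and without replicate 1 (-0.82, adjusted p 0.248) or 4 (-1.03, adjusted p 0.145) of Clone 39 DMSO. The call of HSD17B11 against Clone 28 was also lost with DESeq2, with no filter on low counts and at a threshold of 0.05. Among the dTAG-13 libraries HSD17B11 was called against neither clone (-0.87 and -0.89). CIDEA differed by 2.28 between Clones 39 and 35 (standard error 0.87, adjusted p 0.0823), yet its Clone 39 DMSO values were 2.99, 3.35, 3.81 and 20.6 CPM. Without replicate 4 the difference was 1.04 (adjusted p 0.524), and the call was also lost without replicate 1 (2.29, adjusted p 0.125), 2 (1.99, adjusted p 0.174), 3 (2.25, adjusted p 0.157) or 4 (2.69, adjusted p 0.103) of Clone 35 DMSO. With no filter CIDEA was not called (adjusted p 0.18), and among the dTAG-13 libraries its difference was -0.04.

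The test of the replicate number in DMSO called 7 of 13 partners, 5 of 16 Rab genes and 7 of 21 lipid droplet genes, against the 30.3% of all genes given above. In dTAG-13 it called 5 of 13 partners, 4 of 16 Rab genes and 2 of 19 lipid droplet genes, against 20.1%. It called 6 of the 10 luminal markers in DMSO and 8 in dTAG-13, and 8 and 14 of 37 neighbours. The part of these genes in the levels of *TPD52L1* was not tested.

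Markers of cell state also moved between clones. In Clone 39 against Clone 28, 2 of the 10 luminal markers were higher and 4 lower, where 12.4% of all genes were higher and 14.3% lower. Of the basal markers ACTA2 was called higher, by 1.00 on the log2 scale, and TP63 lower, by -0.78. Of the mesenchymal markers FN1 was called higher, by 0.80, and of the blood markers CD68 was called lower, by -0.93, and PTPRC, which DESeq2 did not call, higher, by 0.69, while the defining basal keratins *KRT5*, *KRT14* and *KRT17* were at or near 0 in every library. For Clone 35 against Clone 28 edgeR called 0 luminal markers higher and 1 lower, where 2.24% of all genes were higher and 3.01% lower. This was PGR, named after its values were seen, at -0.70 (standard error 0.14, adjusted p 0.00602). For Clone 39 against Clone 35 edgeR called 2 higher and 4 lower, where 9.64% and 12.9% of all genes were. PGR was among the higher, by 0.61 (standard error 0.14, adjusted p 0.00397). DESeq2 gave 0 and 1, then 2 and 3. With dTAG-13 1 luminal marker was called, *KRT19*, at -0.13 on the log2 scale (standard error 0.03, adjusted p 0.0346), with 11 of 12 pairs lower. DESeq2 called it as well, and so did the fit with the replicate block (adjusted p 0.000462). The call was lost with any 1 clone left out, in each clone alone and in the pairs numbered 3 and 4 alone, but not in those numbered 1 and 2, a split chosen after seeing the data. The log2 fold change stayed between -0.20 and -0.09 in all of these. The part of such differences in the levels of the family was not tested.

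Across the 24 libraries the members followed each other little once the groups were taken out. The Pearson correlation of log2 CPM was 0.467 between *TPD52* and *TPD52L1* and 0.011 after removing the mean of each group. Between *TPD52L1* and *TPD52L2* it was -0.442, and -0.244 within groups, and between *TPD52* and *TPD52L2* it was -0.169 and 0.013. These values are a description over libraries that share clones, treatments and collection times.

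Among genes with a mean of at least 10 CPM, the pattern most like that of *TPD52L1* over the 24 libraries was that of RBBP8, with a Pearson correlation of 0.949, or 0.893 within groups, among 14544 genes compared. LINC02568 and PDZK1P1 followed with 0.934 each, or 0.899 and 0.873 within groups. RBBP8, whose product acts in the trimming of DNA ends, itself rose in 12 of 12 pairs, with a mean of 273 CPM and a log2 fold change of 0.25.

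Among the genes most like *TPD52* were MVB12B with 0.953 and CDC42EP3 with 0.945. Within groups these fell to 0.591 and 0.378, so much of the likeness came from differences between groups. For *TPD52L2* the highest correlations were lower, 0.687 for FGFBP3, 0.684 for DNAJC28 and 0.684 for ZNF740 among 14545 genes, with 0.691, 0.738 and 0.636 within groups.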

How the data were processed

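The 24 PRO-seq libraries form 6 groups, 1 for each clone in each treatment. The authors deposited raw counts, with 1 column per library and no scaling. The submitters' processing notes name cutadapt 1.8.1, Bowtie2 2.4.4, SAMtools 1.9 and hg38, and reads were deduplicated by molecular identifiers. The annotation and strand setting of the counting are not given in the sources used here. Of 60605 identifiers, 60463 had a symbol in GENCODE release 44.

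Models were fitted in edgeR 4.0.16 under R 4.3.3. filterByExpr with a minimum count of 10 kept 22326 genes (21254 for the DMSO and 21529 for the dTAG-13 libraries alone), TMM scaled the libraries, and quasi-likelihood fits were robust. The treatment fit had clone and treatment, the clone contrasts and the interaction had 6 groups with 18 residual degrees of freedom, and the replicate number was tested with clone as covariate. All tests are two-sided, p-values were adjusted by Benjamini-Hochberg across every gene tested, and the threshold was 0.1. Per-library log2 values use a prior count of 2. On simulated counts the test of the replicate number made more false calls than its threshold allows. Annotation, promoters and figures used Python 3.11.15, pandas 2.3.3 and matplotlib 3.10.9.

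The members and the gene lists were chosen with earlier results of these data known. Named from the lists were genes called with dTAG-13 or in the interaction, the 3 with the highest mean CPM per list, the 3 largest called differences per clone contrast, the nearest tested neighbour on each side, and up to 3 of the genes most correlated with each member. Alternatives were RLE size factors, library totals, no filter, a minimum of 10 counts in each library, a threshold of 0.05, DESeq2 1.42.0, a replicate block, single clones, each clone left out, contrasts among dTAG-13 libraries, levels without length and each library left out. The RefSeq gene span as length and the pairs of 2 replicate numbers alone were chosen after seeing the data.

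Libraries are paired by clone and replicate number from the labels and methods, which say that the treatments were collected together and the replicates at different times. Deviations from group means correlated by 0.185 on average in such pairs (0.0926 to 0.318, 12 pairs) and by 0.225 for the same number and treatment in 2 clones (0.0936 to 0.352). Total counts were 3226718 to 9575803 (median 5042122). Replicates differed from each other by more than counting error, with 1.64 to 13.6 as chi-square over its degrees of freedom, so no library duplicates another. Replicates are separate cultures of 1 line each, so p-values measure the spread among these cultures. Floors cover counting error only.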

Additional observations from a re-analysis of the deposited data

Results flagged for a closer look

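*TPD52L1* was at 187 CPM in replicate 1 of Clone 39 with dTAG-13, while the other 3 libraries of that group were at 158, 157 and 161 CPM. The gap to the nearest library made up 0.885 of the group's range, above the limit of Dixon's test. Of 36 groups of 4 values looked at, 1 passed the limit, where chance gives 1.8.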

How the results depend on the processing

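Of 59 results, 404 of 459 values under 19 other settings and 1205 of 1248 without 1 library kept their direction and their side of the threshold, or for counts and levels stayed close. The number of genes called with dTAG-13, 123 as reported, moved most. It was 197 with no filter, 64 at a threshold of 0.05, 521 with the replicate block, 4, 0 and 0 in Clone 28, 35 and 39 alone, and 1, 37 and 37 with these clones left out. With the pairs numbered 1 and 2 alone it was 184 and with those numbered 3 and 4 alone 1042, both chosen after seeing the data, and without single libraries 66 to 149. It fell to 78 and 66 without replicates 3 and 4 of Clone 28 DMSO, to 75 and 67 without replicates 1 and 2 of Clone 28 dTAG-13, to 77 without replicate 3 of Clone 35 dTAG-13 and to 80 without replicate 3 of Clone 39 DMSO. The interaction called 6 genes with no filter and 1 with the replicate block, against 0 as reported. With the replicate block shared by the clones, Clone 35 minus Clone 28 was called for *TPD52* at 0.14 and *TPD52L1* at -0.17, and 2664 genes were called; the block changed no other call of a member. Over left-out libraries that difference ran for *TPD52L2* from -0.02, without replicate 4 of Clone 35 DMSO, to 0.04, and Clone 39 minus Clone 28 from -0.10 to 0.00, the latter without replicate 1 of Clone 39 DMSO. Among the dTAG-13 libraries, RAB6A in Clone 39 minus Clone 28 and CIDEA in Clone 39 minus Clone 35 reversed, each to -0.04. Levels per kb became 87.9, 129 and 69.4 CPM for *TPD52*, *TPD52L1* and *TPD52L2* with no division by length, and 0.626 and 1.17 CPM per kb for the first 2 with the RefSeq span, chosen after seeing the data. The fold changes with dTAG-13 ran from -0.19 to -0.10 for *TPD52* and from 0.13 to 0.32 for *TPD52L1*. Calls of *TPD52* and *TPD52L1* in Clone 39 and of *TPD52L1* by replicate number held without each library in turn, with adjusted p up to 0.0416. The cause of these changes was not tested.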
